A study of Mus musculus with 14 samples.

Results

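Iron storage, uptake and export were followed through 10 genes in the retinal pigment epithelium (RPE) of rd1 mice at postnatal day 20. The RPE is a sheet of pigmented cells that lies against the photoreceptors. The genes are the ferroxidase genes Heph and Cp, the divalent metal transporter genes Slc11a1 and Slc11a2, the exporter gene Slc40a1, the ferritin genes Fth1 and Ftl1, the transferrin uptake genes Trf and Tfrc, and Ireb2, for an iron regulatory protein. They are 10 of the 34453 rows of the count table, and all 10 passed the filter on low counts. The set was put together by role, and in part chosen by measured values: Heph and Slc11a1 were selected on their rise in Nrf2 eyes, seen in all 7 pairs. For these 2 genes the difference between the eyes is therefore given as a description without a test.

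The rd1 mice were of the FVB/N strain, which carries a loss-of-function mutation in the rod gene Pde6b and loses its rods early. Control eyes (n = 7) had received AAV-Best1-GFP, a virus with the 7M8 capsid that drives green fluorescent protein from the human Best1 promoter, which is active in the RPE. Nrf2 eyes (n = 7), the other eyes of the same 7 mice, had received that virus together with AAV-Best1-Nrf2, which has the AAV8 capsid and drives human Nrf2 (gene NFE2L2), a transcription factor of the response to oxidative stress. Effects of the transgene and of an additional vector with another capsid therefore cannot be told apart here. The RNA was released from eyecups after the retina was taken off, and was amplified before sequencing. The methods of the study speak of fewer pairs at this age than the labels number. Which mouse was left out is not given in the sources used here. Libraries that share a number in the labels were taken as a pair, and every such pair was used.

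Iron enters cells mainly as transferrin-bound iron through the transferrin receptor, leaves the endosome through divalent metal transporters, is stored in ferritin shells of heavy (H) and light (L) chains, and leaves the cell through ferroportin with the help of a ferroxidase. Much of this is set after transcription. Iron regulatory proteins bind a hairpin, the iron-responsive element, in the messenger RNA when iron is low. Binding near the start blocks translation, as in ferritin and ferroportin, and binding in the 3′ end protects the message, as in the transferrin receptor. In the RPE iron is of interest because free ferrous iron feeds the formation of radicals, and Heph and Cp are known there as ferroxidases that aid iron export.

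The hairpins found in these messages by a strict search are shown first, because iron is known to act on messages through such hairpins. The search took the letters CNNNNNCAGTGN followed by 5 bases able to pair with the 5 before the loop (G with T allowed), in the UTRs of GENCODE M21 (GRCm38). Capitals mark the unpaired C and the loop. It found a match in the 5′ UTR of Slc40a1 (minus strand, chr1:45925466-45925492), Fth1 (plus strand, chr19:9982733-9982759) and Ftl1 (minus strand, chr7:45459780-45459806). It found 4 in the 3′ UTR of Tfrc, all in its last exon on the plus strand, at chr16:32631220-32631246, chr16:32631599-32631625, chr16:32631664-32631690 and chr16:32631711-32631737.
Slc40a1 5′ element: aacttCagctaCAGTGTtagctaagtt
Fth1 5′ element: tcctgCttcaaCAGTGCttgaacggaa
Ftl1 5′ element: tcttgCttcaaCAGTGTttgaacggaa
Tfrc 3′ element 1: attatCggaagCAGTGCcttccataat
Tfrc 3′ element 2: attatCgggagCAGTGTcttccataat
Tfrc 3′ element 3: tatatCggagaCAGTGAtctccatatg
Tfrc 3′ element 4: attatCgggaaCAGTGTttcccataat
Among all genes with a 5′ UTR, 31 of 20916 (0.148%) held the element there, and among those with a 3′ UTR 129 of 21042 (0.613%) did. None of the other 6 members and 0 of the other iron genes examined below held these letters with this pairing, which says nothing of looser forms of the element.

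A second short sequence bears on the vector. The core of the antioxidant response element, to which Nrf2 binds with small Maf proteins, was searched as TGANNNNGC on both strands of the 300 bases around each RefSeq start (250 before, 50 after, GRCm38.p6). Windows were given for 6 members, Cp, Slc11a1, Fth1, Ftl1, Tfrc and Ireb2. Of these the Slc11a1 window held the letters, 52 to 44 bases before the start on the plus strand (chr1:74375141-74375169), shown with the core in capitals.
Slc11a1 promoter: tgtgaaattgTGAGCATGCcctcagtgat
The same letters stood in 41.3% of all 32851 windows, so a match by itself is common.

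Before the results, 2 libraries need mention. The vector transcript, human NFE2L2, lay between 4577 and 8711 CPM (counts scaled to the same total in every library) in Nrf2 eyes other than Nrf2 4, and between 1.12 and 175 CPM in control eyes other than control 3. The library labelled Nrf2 4 and the library labelled control 3 both stood at 1163 CPM, so by this measure both lie between the groups and control 3 goes against its label. Results are given with all 7 mice and, where it matters, without mice 3 and 4. Total counts ranged from 16548349 to 50543008 per library. Of 12 RPE markers, 11 were over 1 CPM in every library, the exception being Best1 itself, and their summed level was 12396 to 27141 CPM in control and 20342 to 27485 CPM in Nrf2 eyes. The sum joins markers that went different ways, 6 with a log2 fold change above 0 and 6 below. Mean Ttr was 3401 CPM in control and 9005 CPM in Nrf2 eyes, while the means of Rlbp1, Rdh5, Lrat and Dct were lower in Nrf2 eyes. Of the 12, 1 passed the test and was lower in Nrf2 eyes, beside 0.491% of all genes called lower. It was Rpe65, the retinoid isomerase of the visual cycle, picked here after its value was seen. Rpe65 fell in each of the 7 mice, with a fitted log2 difference of -2.17 (edgeR adjusted p 0.0199). Its part in the results on iron genes was not tested. The summed level of 10 photoreceptor markers was 50.3 to 1246 CPM in control and 18.7 to 148 CPM in Nrf2 eyes. Of these 10 genes 2 passed the test, both lower in Nrf2 eyes, beside 0.491% of all genes called lower. Sequencing was done in 2 runs, and the labels do not tie libraries to runs.

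Ferritin and ferroportin messages were higher in Nrf2 eyes, and the transferrin uptake genes did not pass the test in edgeR. Of the 8 members that were not taken for their values, Slc40a1, Fth1 and Ftl1 were higher in Nrf2 eyes (3 of 8) and none was lower in edgeR. Over all 16289 genes tested, 3.43% were called, 2.94% higher (479 genes) and 0.491% lower (80 genes) in Nrf2 eyes, and the median log2 fold change was -0.04. At an unadjusted p under 0.05, 4 of the 8 members were higher and 1 was lower, beside 10.7% and 7.49% of all genes. DESeq2 called 3 members higher and 1 lower, beside 7.6% and 4.33% of all genes (1238 higher, 705 lower). Voom called 4 higher and 1 lower, beside 9.73% and 6.18% of all genes (1585 higher, 1007 lower). The balance of directions over all genes depended on the mice in the fit. Without mouse 4 edgeR called 978 genes higher and 1020 lower, and without mice 3 and 4 together 494 higher and 253 lower. A gene higher in every one of the 7 pairs was 5.65% of those tested, and a gene whose Nrf2 libraries all lay above its control libraries was 1.22%. Since the members were chosen with this contrast known, nothing is read from these shares. In bulk RNA a change in the number of cells of a type and a change of RNA per cell cannot be told apart. Fold changes and adjusted p-values below are from the paired quasi-likelihood test of edgeR, adjusted by Benjamini-Hochberg over all genes, and its normalization scales libraries differently from CPM, so that a fold need not equal the ratio of mean CPM.

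**Figure D1:**
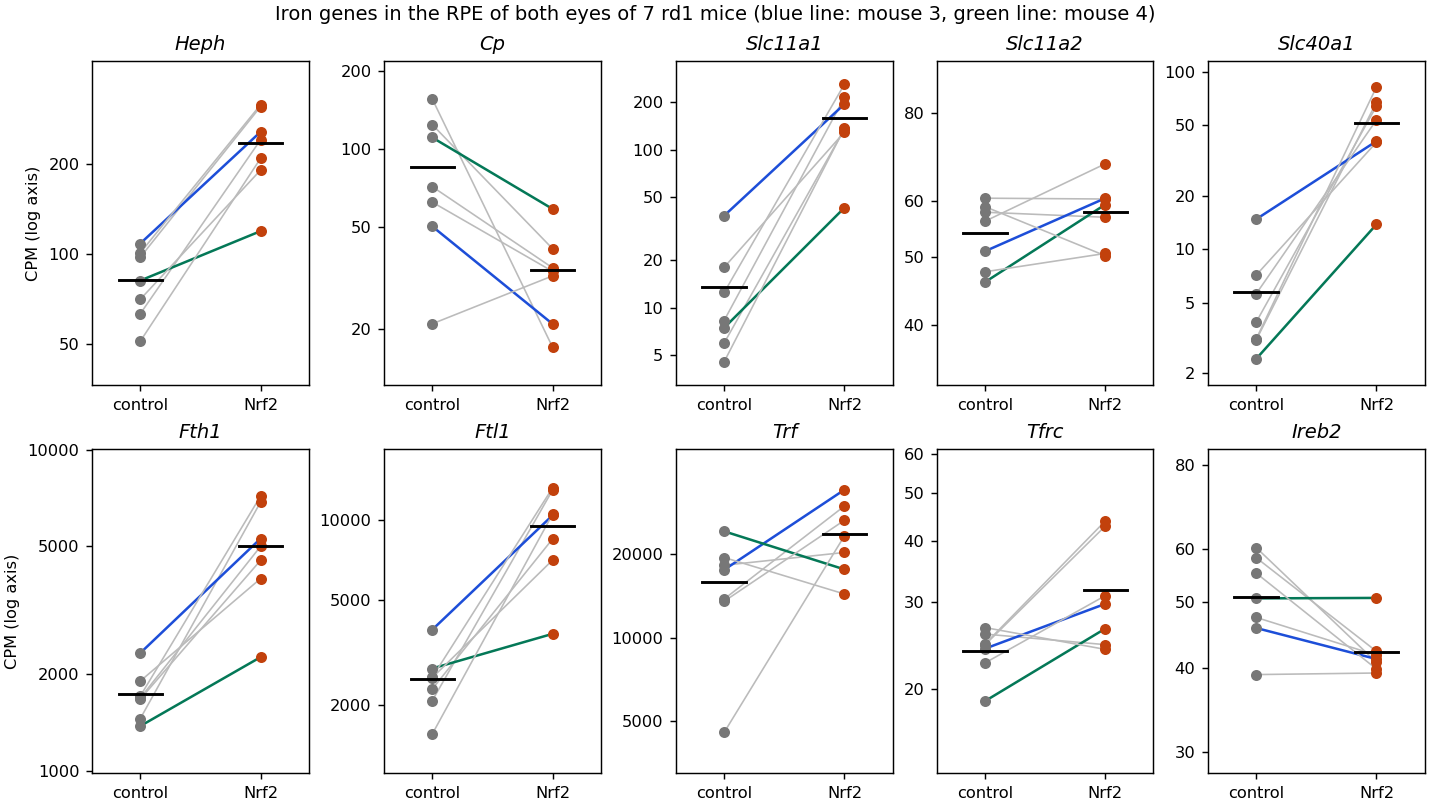
CPM (log axis, its range set for each gene) of the 10 iron genes in control (grey) and Nrf2 eyes (orange), with a line for each of the 7 mice and a black bar at the group mean. Slc40a1, Fth1, Ftl1, Heph and Slc11a1 go up in all 7 mice, and mouse 4 (green) ends lowest in these 5 genes while mouse 3 (blue) starts highest.

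Slc40a1 encodes ferroportin, the known iron exporter of mammalian cells (ENSMUSG00000025993, chromosome 1, 45908068 to 45926523, GRCm38). It was at 2.40 CPM in the lowest, 3.87 in the median and 14.8 in the highest control library, and at 13.8, 53.6 and 82.3 CPM in the lowest, median and highest Nrf2 library. The groups overlapped through the library labelled Nrf2 4, at 13.8 CPM, which lay just under the library labelled control 3. Slc40a1 was the lowest member in control eyes, with 68 counts in its lowest control library. The fitted difference was 3.41 on the log2 scale (SE 0.42, adjusted p 0.00936 in edgeR), or 10.7-fold, with all 7 mice higher, and in single mice it ranged from 1.67 in mouse 3 to 4.80 in mouse 7. Without mice 3 and 4 it was 3.91 (adjusted p 0.00404 in edgeR). The groups were then apart, since the overlap lay in the libraries left out.

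Ferritin was among the most abundant messages here. Fth1, for the H chain, which carries the ferroxidase site of the shell (ENSMUSG00000024661, chromosome 19, 9980598 to 9985098), had 1378 CPM in the lowest, 1685 in the median and 2327 in the highest control library. In Nrf2 libraries these values were 2260, 5004 and 7178 CPM. Again the lowest Nrf2 library was Nrf2 4 and the highest control library was control 3, and the overlap lay between these 2 libraries alone. The log2 fold change was 1.59 (SE 0.25, edgeR adjusted p 0.0142), a 3.02-fold difference, higher in 7 of 7 mice. It was not past the threshold without mouse 3 (1.65, edgeR adjusted p 0.0555) or without mouse 7 (1.50, adjusted p 0.0638).

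Ftl1, for the L chain, which favours the formation of the iron core (ENSMUSG00000050708, chromosome 7, 45457944 to 45459884), had 1558, 2542 and 3855 CPM in the lowest, median and highest control library. Nrf2 libraries had 3720, 10401 and 13195 CPM, and the overlap was once more that of Nrf2 4 with control 3. The log2 fold change was 1.99 (SE 0.33, edgeR adjusted p 0.0178), a 3.97-fold difference, higher in 7 of 7 mice. In edgeR fits without mouse 1, 3, 5 or 7 the adjusted p was 0.0621, 0.0652, 0.0569 and 0.0805, while the fold change stayed between 1.82 and 2.07. Without mice 3 and 4 together both ferritin genes passed, Fth1 at 1.78 (adjusted p 0.0255) and Ftl1 at 2.33 (adjusted p 0.0144).

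Both ferritin genes have pseudogene copies that could take reads. Fth1 held 99.96% to 99.99% of the counts of its family in every library and Ftl1 held 98.6% to 99.2%. Summing the copies left the log2 fold changes at 1.59 and 1.99. The 2 genes together made up 0.425% ± 0.0948 of all counts in control eyes and 1.45% ± 0.504 in Nrf2 eyes (SD, n = 7).

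The rise was unequal between the chains. The count of Fth1 over that of Ftl1 was 0.718 ± 0.181 in control and 0.538 ± 0.0412 in Nrf2 eyes (SD, n = 7), that is, the L chain message gained on the H chain message. This ratio is taken within a library and needs no scaling between libraries. On the log2 scale it was -0.51 ± 0.34 in control and -0.90 ± 0.11 in Nrf2 eyes, lower in the Nrf2 eye of 6 of 7 mice by 0.39 ± 0.43 on average (exact two-sided sign-flip permutation test, p = 0.0469). Mouse 4 went the other way, by 0.28. The lowest difference, -1.18, was that of mouse 6, whose control eye had the highest ratio, 1.08. Without mouse 6 the mean difference was -0.25 (exact sign-flip p = 0.0938), and with any mouse but mouse 4 left out the exact p was at least 0.0625. Without mouse 4 it was -0.50 (exact sign-flip p = 0.0312).

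The ferroxidases of the cell membrane and of secretion did not move together. Heph encodes hephaestin, a membrane-bound copper ferroxidase (ENSMUSG00000031209, chromosome X, 96455359 to 96574485). It had 51.1, 81.6 and 109 CPM in the lowest, median and highest control library and 119.5, 242 and 317 CPM in Nrf2 libraries. Every Nrf2 library was above every control library, and the narrow gap lay between control 3 and Nrf2 4. Its log2 fold change was 1.64 (SE 0.17), with a range over mice from 0.72 in mouse 4 to 2.03 in mouse 1.

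Cp encodes ceruloplasmin, the copper ferroxidase found in plasma and also made in the retina (ENSMUSG00000003617, chromosome 3, 19957054 to 20009145). It had 21, 71.4 and 156 CPM in the lowest, median and highest control library and 17.1, 33.5 and 58.5 CPM in Nrf2 libraries. It was lower in the Nrf2 eye of 6 of 7 mice and higher in mouse 6, whose control library was the lowest. The log2 difference was -1.05 (SE 0.34) with an edgeR adjusted p of 0.155, so it did not pass. It did pass in DESeq2 (-1.03, adjusted p 0.0223) and in voom with quality weights (-1.18, adjusted p 0.0249). The exact sign-flip permutation test of the paired log2 CPM gave an unadjusted p of 0.0312. The summed photoreceptor markers given above were also lower in Nrf2 eyes, and their part in the level of Cp was not tested.

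**Figure D2:**
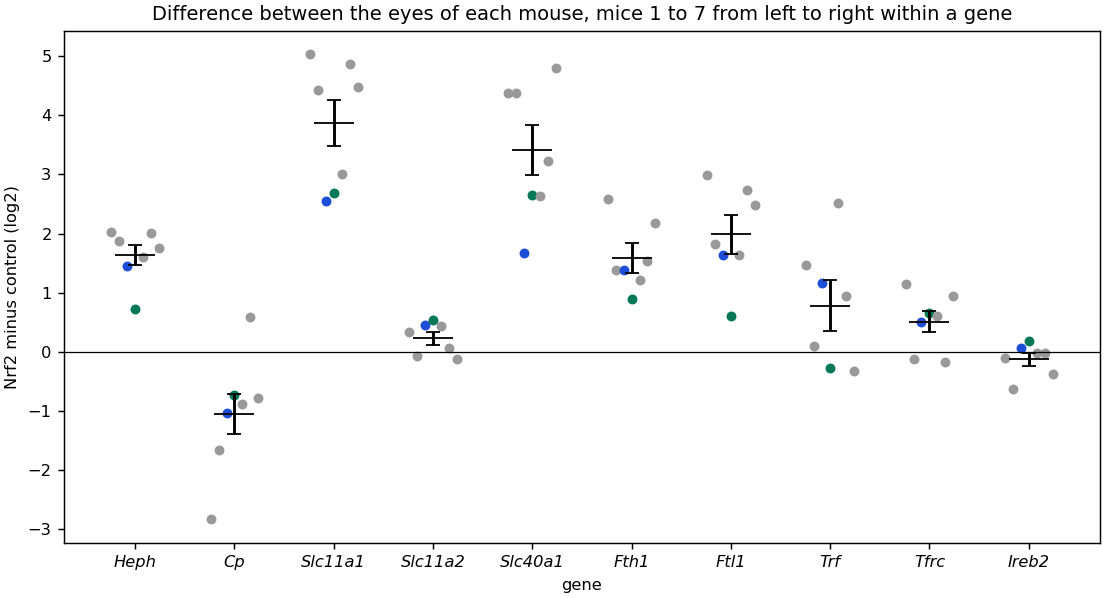
Difference of log2 CPM between the Nrf2 and the control eye of each mouse (points, mice 1 to 7 from left to right, mouse 3 blue and mouse 4 green), with the fitted log2 fold change as a bar and its SE as whiskers. All 7 points of Heph, Slc11a1, Slc40a1, Fth1 and Ftl1 lie above 0, while 6 of 7 points of Cp lie below it.

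The divalent metal transporters differed sharply in size of change. Slc11a1 encodes Nramp1, a transporter known from the phagosomes of macrophages (ENSMUSG00000026177, chromosome 1, 74375195 to 74386062), and is the member with the promoter match shown above. It had 4.55, 8.29 and 38.2 CPM in the lowest, median and highest control library and 43.0, 137 and 260 CPM in Nrf2 libraries. Every Nrf2 library was above every control library, again with Nrf2 4 and control 3 as the neighbours. Its log2 fold change was 3.87 (SE 0.39), a 14.7-fold difference, with a range over mice from 2.55 to 5.03. Without mice 3 and 4 it was 4.38.

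Since Slc11a1 is a macrophage gene, macrophage and microglia markers were set beside it. None of the 14 markers passed in edgeR, beside 2.94% of all genes higher and 0.491% lower. At an unadjusted p under 0.05, 2 were higher and 1 lower, beside 10.7% and 7.49% of all genes. DESeq2 called 3 higher and 1 lower, beside 7.6% and 4.33% of all genes. Voom called 0, beside 9.73% and 6.18%. None was higher in all 7 mice, where 5.65% of all genes were, so little is read from this. Of the 14, 11 had a log2 fold change above 0, with a median of 1.07, where that of all genes was -0.04. Cd68, Adgre1, Lyz2, C1qa, C1qb, C1qc, Tyrobp and Fcer1g were each higher in 6 of 7 mice. In each of these genes mouse 3, with the library control 3, was the exception. Csf1r and Itgam were lower in 6 of 7 mice and Cd14 in 4 of 7. The part of such cells in the level of Slc11a1 was not tested beyond these values. The summed level of the 14 markers was 284 to 544 CPM in control eyes, with control 3 highest, and 182 to 772 CPM in Nrf2 eyes. Csf1r and Itgam weigh most in this sum, with control means of 183 and 94.5 CPM, and both went against most of the list. The sum, and r with it below, therefore need not follow the other markers. Without Csf1r, the highest of the list, the sum was 81.8 to 380 CPM in control and 109 to 637 CPM in Nrf2 eyes. The library with the most Slc11a1, Nrf2 7 at 260 CPM, also had the highest marker sum, 772 CPM. The next, Nrf2 1 at 214 CPM, had a marker sum of 197 CPM, below every control library. Without Csf1r the sum of Nrf2 1 was 131 CPM, above control 4 at 81.8 CPM and below the other 6 control libraries. The low sum of Nrf2 1 came mainly through Csf1r and Itgam, at 66.3 and 23.8 CPM, beside 197 and 78.4 CPM in control 1. In mouse 1, Csf1r, Itgam, Cx3cr1 and Aif1 were lower in the Nrf2 eye (log2 difference -1.22, -1.36, -0.79 and -0.35). The other markers of the list were higher in that eye, by 0.38 to 2.02. Within Nrf2 eyes Slc11a1 had a Pearson r of -0.27 with the log2 marker sum and a Spearman rho of 0.04, and Pearson r was -0.99 without the libraries of mice 6 and 7, which had the highest sums. That value is not particular to Slc11a1. Over the same libraries r was -0.97 for Heph and Ftl1, -0.96 for Fth1, -0.90 for Slc40a1 and 0.91 for Cp. The other members lay between -0.84 (Trf) and 0.23 (Ireb2). Within control eyes Slc11a1 had a Pearson r of 0.48 and a rho of 0.18, and r was 0.43 without mice 3 and 5. The values of Slc11a1 are descriptions over at most 7 libraries, with no test, since it was chosen by its values.

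Slc11a2 encodes DMT1, the transporter that carries ferrous iron out of endosomes (ENSMUSG00000023030, chromosome 15, 100387898 to 100425072). It was among the steadiest of the members, with 46.0 to 60.6 CPM in control and 50.2 to 67.8 CPM in Nrf2 eyes, and the groups overlapped widely. The log2 difference was 0.23 (SE 0.11, edgeR adjusted p 0.313), higher in 5 of 7 mice.

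The messages of Trf and Tfrc did not pass the test in edgeR, and uptake itself was not measured. Trf, for transferrin, the secreted iron carrier that the RPE is known to make (ENSMUSG00000032554, chromosome 9, 103204001 to 103230444), had 4565, 17611 and 24235 CPM in the lowest, median and highest control library. Nrf2 libraries had 14402, 23345 and 34235 CPM. It alone made up 1.59% ± 0.618 of all counts in control and 2.38% ± 0.698 in Nrf2 eyes (SD, n = 7). The log2 difference was 0.78 (SE 0.43, edgeR adjusted p 0.369), higher in 5 of 7 mice, with the largest, 2.51, in mouse 5, whose control library was far the lowest. Tfrc, for the transferrin receptor (ENSMUSG00000022797, chromosome 16, 32608920 to 32632794), had 18.9, 24.6 and 26.6 CPM in the lowest, median and highest control library and 24.1, 29.8 and 43.9 CPM in Nrf2 libraries. Its difference was 0.51 (SE 0.18, edgeR adjusted p 0.178), higher in 5 of 7 mice, and it passed in voom with quality weights (0.68, adjusted p 0.0122).

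Ireb2 encodes iron regulatory protein 2, which binds the hairpins printed above (ENSMUSG00000032293, chromosome 9, 54863789 to 54912530). It had 39.1 to 60.3 CPM in control and 39.3 to 50.8 CPM in Nrf2 eyes. The log2 difference was -0.13 (SE 0.11, edgeR adjusted p 0.575), lower in 5 of 7 mice. Among the members with a match to the form of the element searched above, the 3 with it in the 5′ UTR were those past the threshold. Tfrc, with 4 matches in the 3′ UTR, was not. Looser forms of the element, in these or other members, were not searched and are not counted here. This is a count over 4 genes and was not tested.

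Levels of different genes were compared per length, as TPM, computed from the counts and the longest protein-coding transcript. Means over 7 control eyes, in TPM, were 13110 for Trf, 5495 for Ftl1, 2444 for Fth1, 39.7 for Cp, 36.6 for Heph, 25.9 for Slc11a2, 18.7 for Ireb2, 12.3 for Slc11a1, 10.3 for Tfrc and 3.56 for Slc40a1. Transferrin and ferritin thus stood far above all transporters, receptors and ferroxidases. Between neighbours in this order, Ftl1 was above Fth1, Fth1 above Cp, Slc11a2 above Ireb2 and Tfrc above Slc40a1 in 7 of 7 control libraries. Trf was above Ftl1 and Ireb2 above Slc11a1 in 6 of 7, and Heph above Slc11a2 in 5 of 7. Cp and Heph, and Slc11a1 and Tfrc, changed places from library to library, with the first named higher in 4 and in 3 of 7.

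In Nrf2 eyes the order was different for several members. Ftl1 had a mean of 20068 TPM and Trf one of 19011 TPM, and Ftl1 was above Trf in 4 of 7 Nrf2 libraries, so their order was not settled. Fth1 kept the third place with 6887 TPM. Slc11a1 moved from the eighth to the fourth place, at 141 TPM, above Heph in 6 of 7 libraries. Slc40a1 moved from the last to the sixth, at 31.5 TPM, and was above Slc11a2 in 4 of 7. Cp fell from the fourth to the eighth, at 15.4 TPM. With exon-union lengths in place of transcript lengths the control mean of Fth1 was 1439 TPM and Trf kept the first place in both groups. Several other places depended on the length used. With exon-union lengths Cp went from rank 5 in control to rank 10 in Nrf2 eyes, Slc11a1 from 9 to 4 and Slc40a1 from 10 to 7.

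**Figure D3:**
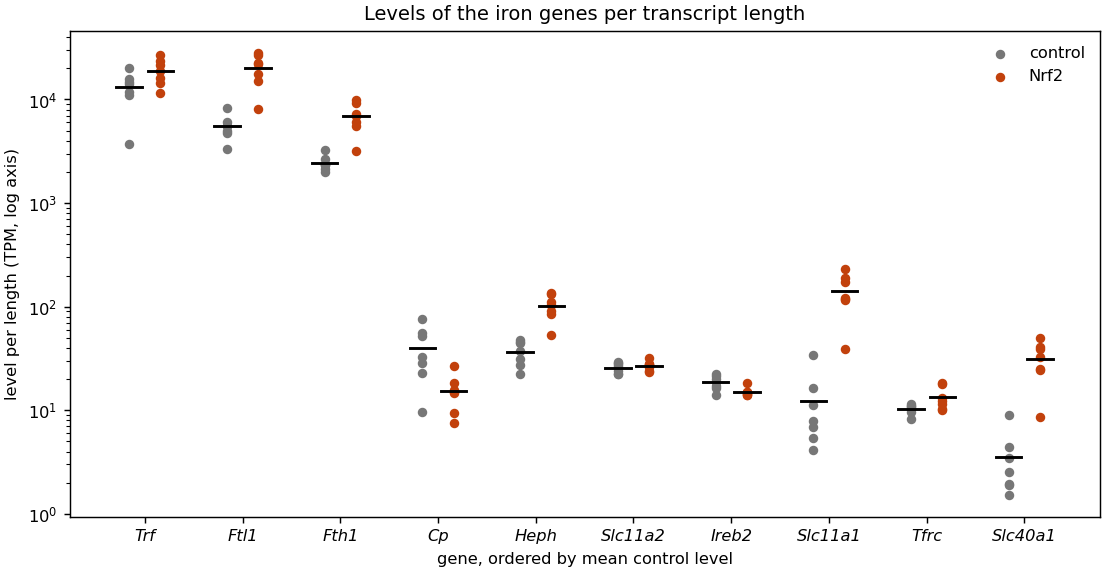
Level per length (TPM, log axis) of the 10 iron genes in each of 7 control (grey) and 7 Nrf2 libraries (orange), with black bars at the means and genes in the order of the control mean. Trf, Ftl1 and Fth1 lie above all other members in every library, and the 7 Nrf2 points of Slc11a1 lie above its 7 control points.

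Within the Nrf2 eyes, where treatment did not differ, the members were compared with the amount of vector transcript. Pearson's r of log2 CPM with the vector transcript over the 7 Nrf2 libraries was 0.97 for Heph, 0.98 for Slc11a1, 0.95 for Slc40a1 and 0.97 for both Fth1 and Ftl1. Of the 8 members taken for their role, 3 (Slc40a1, Fth1 and Ftl1) reached at least 0.9, where 3.13% of all genes tested did so. For Heph and Slc11a1, which were chosen by their values, r is a description with no test. The other members had 0.59 (Tfrc), 0.42 (Trf), 0.08 (Slc11a2), -0.35 (Ireb2) and -0.83 (Cp), and 2.22% of all genes stood at -0.8 or below. Spearman's rho was 0.96 for Heph, 0.93 for Slc11a1, 0.82 for Slc40a1, 0.96 for Fth1, 1.00 for Ftl1 and -0.86 for Cp.

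By exact permutation over all 5040 pairings, p for Pearson's r was 0.0115 for Slc40a1, 3.97e-04 for Fth1, 1.98e-04 for Ftl1 and 0.0151 for Cp. The matching p for Spearman's rho was 0.0341 for Slc40a1, 0.00278 for Fth1, 3.97e-04 for Ftl1 and 0.0238 for Cp. None of these passed when adjusted over all genes: the permutation p adjusted by Benjamini-Hochberg was 0.0804 for Fth1 and Ftl1, 0.154 for Slc40a1 and 0.176 for Cp, and 0 of 16289 genes passed, although 15.9% had an unadjusted p under 0.05. Adjusted p for Spearman's rho was at least 0.147. The permutation p of Ftl1 for Pearson's r is the smallest that 5040 pairings allow. A gene could thus pass the adjustment only if many genes stood near that floor, and the failure to pass says little. In all, 16 such relations were tested, 8 members in each of the 2 groups.

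Leaving out the libraries farthest from the median vector level, Nrf2 4 and Nrf2 1, kept Pearson's r at 0.99 for Heph, 0.97 for Slc11a1, 0.96 for Fth1 and 0.91 for Ftl1. It lowered r to 0.59 for Slc40a1 and to -0.48 for Cp, whose relation rests on those libraries. In control eyes the vector transcript spanned 1.12 to 175 CPM, with control 3 at 1163 CPM. There r was 0.89 for Ftl1 (exact permutation p = 0.00675, adjusted p = 1.00 over all genes) and 0.74 without control 1 and control 6. Slc11a1 had 0.73 there, and the other 8 members lay between -0.25 and 0.52. Without control 3 alone, a choice added after the data were seen, r over the other 6 control libraries was 0.81 for Ftl1 and 0.46 for Slc11a1.

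**Figure D4:**
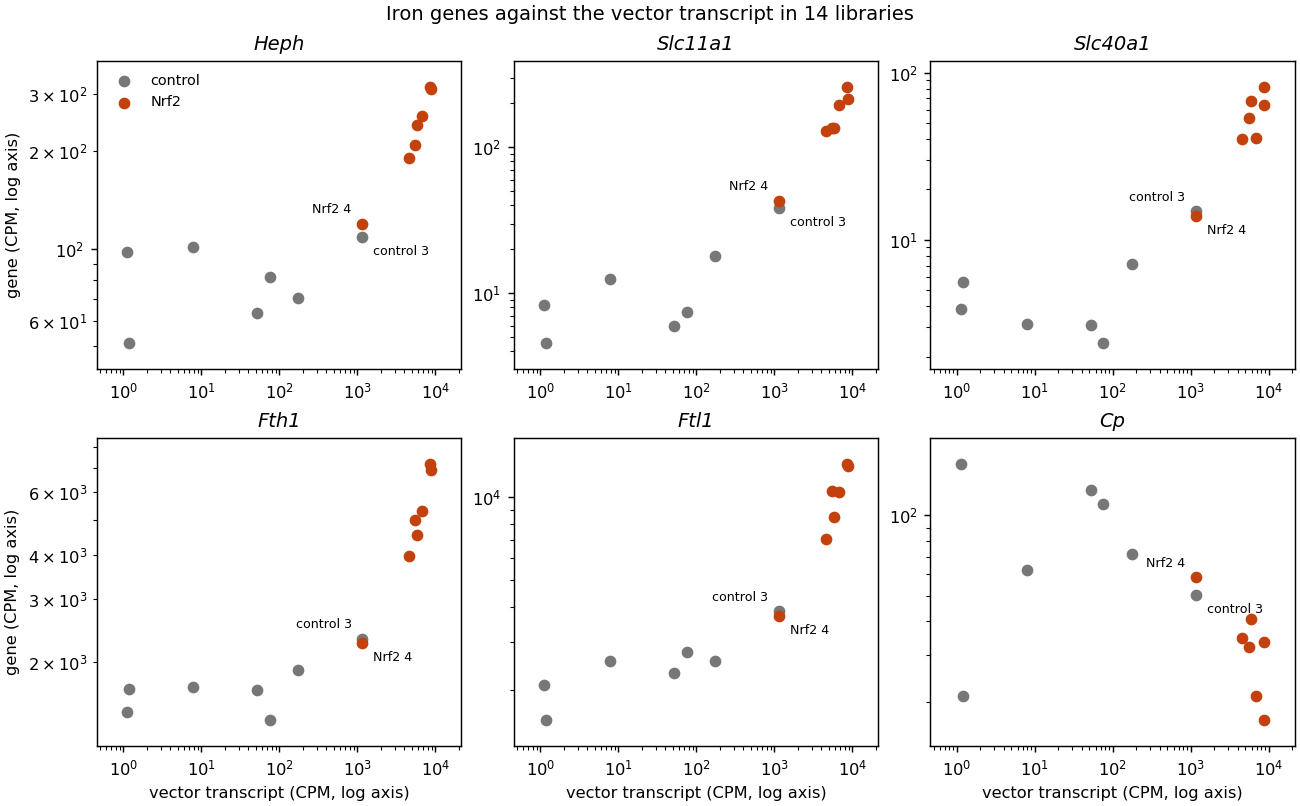
CPM of 6 iron genes against CPM of the vector transcript (both log axes) in 7 control (grey) and 7 Nrf2 libraries (orange), with the libraries labelled control 3 and Nrf2 4 named. Both named libraries share a vector level of 1163 CPM and lie next to each other in all 6 panels, between the other control and the other Nrf2 libraries in Heph, Slc11a1, Slc40a1, Fth1 and Ftl1.

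Genes with the pattern most like that of the members were sought by Pearson's r of log2 CPM over all 14 libraries, which share depth, mouse and treatment, so r is a description. Closest to Heph were Lix1 (0.990), Pgrmc1 (0.986) and Pld3 (0.984). Closest to Slc11a1 were Txnrd1 (0.992), for a thioredoxin reductase, Gclc (0.989), for the catalytic subunit of glutathione synthesis, and Creg1 (0.988). Slc40a1 was most like Gss (0.988), for glutathione synthetase, Blvrb (0.984), for a biliverdin reductase, and Adm (0.984). Fth1 was most like Cyb5a (0.997), Abhd4 (0.993) and Tuba1c (0.992), and Ftl1 was most like Creg1 (0.995), Pld3 (0.994) and Pgrmc1 (0.993). Among the members themselves, Fth1 and Ftl1 had an r of 0.99 over the Nrf2 libraries and of 0.56 over the control libraries.

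A list of 39 other iron genes, of which 34 passed the filter on low counts, had a median log2 fold change of 0.15, where that of all genes was -0.04. Of the 34 genes 2 were called higher (Hfe and Steap2) and 0 lower in edgeR, beside 2.94% and 0.491% of all genes, and 24 had a log2 fold change above 0. At an unadjusted p under 0.05 9 of the 34 were higher and 1 was lower, beside 10.7% and 7.49% of all genes. DESeq2 called 4 and voom 8, all higher, where they called 7.6% and 9.73% of all genes higher. Of 5 reductases 1 was higher, of 5 genes of the hepcidin axis 1 was higher, and 0 were called among 6 of other import routes, 5 of cytosolic sensing, chaperones and ferritin turnover, 10 of mitochondrial iron and iron-sulfur clusters and 3 of endosome traffic. Hamp, for hepcidin, the hormone that removes ferroportin from the membrane, was under the filter, as were Hamp2, Tmprss6, Ftmt and Hephl1.

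Hfe, a membrane protein that associates with the transferrin receptor and is mutated in haemochromatosis, had 12.0, 32.7 and 60.8 CPM in the lowest, median and highest control library. In Nrf2 libraries it had 63.1, 219 and 378 CPM, and the groups were apart, if barely so between control 3 and Nrf2 4. The log2 fold change was 2.96 (SE 0.45, edgeR adjusted p 0.0137), a 7.78-fold difference, higher in 7 of 7 mice. It was 3.00 without mouse 5 (edgeR adjusted p 0.0511) and 2.75 without mouse 7 (adjusted p 0.0553).

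Steap2, of a family of metalloreductases, had 20.5, 42.8 and 64.5 CPM in the lowest, median and highest control library and 47.9, 81.6 and 101.5 CPM in Nrf2 libraries. The groups overlapped through Nrf2 4 and control 1. The log2 fold change was 1.08 (SE 0.20, edgeR adjusted p 0.0252), higher in 7 of 7 mice. Steap2 passed without mouse 4 (1.22, edgeR adjusted p 0.00559) and with any other mouse left out its adjusted p was between 0.0518 and 0.0959.

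The 6 other genes of the list with the highest level per length did not pass in edgeR. Iscu, the scaffold of iron-sulfur cluster assembly, came nearest, with 106 ± 11.1 CPM in control and 150 ± 28.7 CPM in Nrf2 eyes (SD, n = 7). It differed by 0.62 on the log2 scale (SE 0.14, edgeR adjusted p 0.0512, higher in 7 of 7 mice), and it passed in DESeq2 (adjusted p 0.00192) and voom (adjusted p 0.00643). The cluster assembly genes Isca1 and Isca2 differed by 0.31 (SE 0.13, edgeR adjusted p 0.270) and 0.30 (SE 0.10, adjusted p 0.156). Slc22a17, for a receptor of lipocalin 2, differed by 0.52 (SE 0.23, edgeR adjusted p 0.280), the iron chaperone gene Pcbp1 by 0.03 (SE 0.10, adjusted p 0.899) and the endosome gene Snx3 by 0.22 (SE 0.09, adjusted p 0.234). For their bearing on ferritin, 2 further genes were picked after their values were seen. Ncoa4, the receptor that takes ferritin to the lysosome, differed by -0.11 (SE 0.08, edgeR adjusted p 0.486) and Aco1, for iron regulatory protein 1, by -0.22 (SE 0.09, adjusted p 0.225, lower in 7 of 7 mice). Neither of these passed, nor did Ireb2. These are message levels only, their proteins were not measured here, and their part in the level of ferritin and ferroportin messages was not tested.

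**Figure D5:**
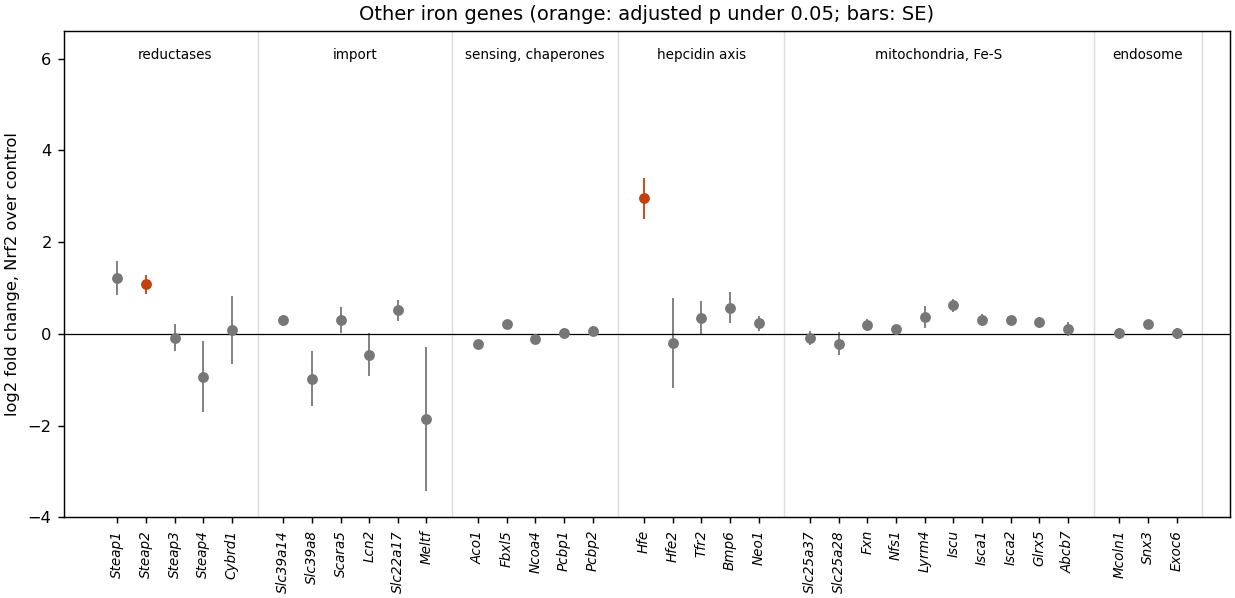
Log2 fold change of Nrf2 over control eyes with its SE for the 34 other iron genes that passed the filter, in 6 groups by role. Hfe and Steap2 (orange) passed an adjusted p of 0.05, and the other 32 genes (grey) did not.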

How the data were processed

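RNA of both eyes of 7 rd1 mice was sequenced (14 libraries). The authors deposited estimated counts per gene, rounded and not normalized between libraries. Their methods name STAR on mm10 with Ensembl release 91, featureCounts and, in parallel, Salmon (version 0.9.1 in the submitters' processing notes). That the table is the Salmon branch was read from its kinds of rows. Groups and pairs were taken from the labels, where eyes carry the number of their animal. Between libraries paired in this way, deviations from the mean of the group correlated by -0.31 to 0.30. These values do not bear out the pairing, so counts of mice rest on the label numbers.

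Eyes were compared with edgeR 4.0.16 in R 4.3.3, as a quasi-likelihood fit with terms for mouse and treatment, TMM and filterByExpr with a minimum count of 10, adjusted over 16289 genes at a threshold of 0.05. SE came from the F statistic. The fit was tested on simulated data. Log2 CPM used a prior count of 2. Relations within a group used exact permutation, adjusted over all genes tested within a group rather than over the members as first planned. Alternatives were no block, RLE and upper-quartile scaling, DESeq2 1.42.0, voom (limma 3.58.1), other filters and mice left out. Errors are the spread between eyes, since amplified reads are not independent molecules.

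The members and lists were chosen with earlier results of these data known. Named were all members, other iron genes past the threshold and up to 6 of the most abundant others, and the 3 genes most like each member past the threshold and Heph and Slc11a1. Sequences are from GENCODE M21 and RefSeq. Of 34452 mouse gene rows, 34401 matched GENCODE M21 (GRCm38).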

Additional observations from a re-analysis of the deposited data

Results flagged for a closer look

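In 5 of 30 groups of 7 values the highest or lowest library stood far from the rest by Dixon's criterion (gap over range above 0.568). Chance would give about 1.5 if values were normally spread. CPM was used here without logs, which stretches high values, and all 5 flags fell on the highest library of a group. Flags on the log2 scale were not counted, so the 5 are not read against the 1.5. Of these 5, 4 belonged to the library labelled control 3. It was the highest control library for Slc11a1 (38.2 CPM), for Slc40a1 (14.8 CPM), for the vector transcript (1163 CPM) and for the summed macrophage markers (544 CPM). The library labelled Nrf2 4 was the highest Nrf2 library for Ireb2 (50.8 CPM). What sets these libraries apart was not tested.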

How the results depend on the processing

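No alternative turned the direction of a member: of 152 values of the 10 members under alternatives, 143 kept their side of the threshold (for Heph and Slc11a1, moved by less than 1 SD between mice), 6 lost it (Fth1 and Ftl1, with mice left out) and 3 gained it (Cp in DESeq2 and voom, Tfrc in voom). The sign-flip test of single members is unadjusted and not counted there. Over the alternatives the log2 fold change lay between 1.56 and 1.85 for Heph, 3.54 and 4.38 for Slc11a1, 3.04 and 3.91 for Slc40a1 (edgeR, DESeq2 or voom adjusted p at most 0.0383), 1.43 and 1.78 for Fth1 (adjusted p at most 0.0638), and 1.82 and 2.33 for Ftl1 (adjusted p at most 0.0805). Without the replicate block, 1100 genes were called (877 higher, 223 lower) in place of 559 (479 and 80), 3 of the 8 members and 3 of the other iron genes. DESeq2 called 1943 genes (1238 higher, 705 lower) and 4 other iron genes, and voom 2592 genes (1585 higher, 1007 lower), 5 members (Cp and Tfrc besides the other 3) and 8 other iron genes. Without a filter on low counts 347 genes were called. With each mouse left out in turn, 111 to 1998 genes, 1 to 3 members and 0 to 5 other iron genes were called, the most genes without mouse 4 (978 higher, 1020 lower) and the fewest without mouse 7 (102 higher, 9 lower). The ferritin ratio differed by -0.50 to -0.25 with a mouse left out, and by -0.55 without mice 3 and 4 (exact sign-flip p = 0.0625, the smallest that 5 mice allow). For relations with the vector or macrophage markers 0 passed with all libraries or without the 2 farthest. The number of pairings bounds p from below, 5040 with all 7 libraries of a group and far fewer without 2. After adjustment over all genes these tests had little room to pass, so nothing is read from this. The macrophage alternative and the relation without control 3 were added after the data were seen. Causes of these shifts were not tested. Slc40a1 and Slc11a1 rest on the fewest counts, 68 and 108 in their lowest libraries.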
